A study of Mus musculus with 202 samples.

Results

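Single metaphase II (MII) oocytes of the third filial generation (F3) were compared between the androgen lineage and its control. MII is the arrest at which an ovulated egg waits for fertilisation. The mice were C57Bl/6J. In the lineage called CD+DHT the founding F0 female had a control diet (CD) and was treated with dihydrotestosterone (DHT), an androgen that cannot be converted to oestrogen. In the lineage called CD+Veh she had the same diet with vehicle (Veh). The treatment is recorded for the founding female, 3 generations back, and the study asks about susceptibility to polycystic ovary syndrome passed down after prenatal exposure to androgen. The labels give no age for the F3 females. Each group held 24 oocytes, of the 202 oocytes in all 11 groups. An oocyte was retained if its library reached 100000 gene counts and 4000 detected genes, which left 13 of CD+DHT and 18 of CD+Veh. In CD+DHT 11 oocytes fell short of these minima and in CD+Veh 4 did. A further 2 CD+Veh oocytes, numbers 19 and 21, were left out because they were rich in RNA of cumulus cells, the somatic cells that surround the egg. The labels name no mother for any of these oocytes. Each group was therefore treated as 1 sample of cells, no test was made between the groups, and all differences are descriptions of these oocytes.

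An MII oocyte does not transcribe. It lives on messenger RNA and protein made while the follicle grew, and this maternal store arrests the spindle, responds to fertilisation and runs the first division. The store also carries the machinery that destroys maternal messengers after fertilisation. In follicles androgens act chiefly on the somatic granulosa and theca cells.

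Depth differed between the groups. Gene counts per oocyte in CD+DHT were 205518 at the lowest, 1692268 at the median and 16359078 at the highest. In CD+Veh they were 748453, 2725346.5 and 6892284. Below 500000 counts lay 6 CD+DHT oocytes (205518 to 465928) and 0 CD+Veh oocytes. In the shallowest oocyte a gene with no read could lie at up to 14.6 CPM (counts scaled to a library total of 1000000), taking 3 counts as the limit that a count of 0 allows. After thinning to 200000 counts, CD+DHT oocytes held 5512 to 7208 genes (median 6416) and CD+Veh oocytes 5090 to 7278 (median 6107.5), so the groups overlapped. Oocyte identity was clear in both: 16 markers such as Gdf9, Zp3 and Mos summed to a median of 19371 CPM in CD+DHT and 16541 CPM in CD+Veh. Markers of theca, leukocyte and epithelial cells summed to medians under 10 CPM in both groups. Erythroid and endothelial markers summed to medians of 136 and 145 CPM, mostly Pecam1 (119 and 132 CPM), while 6 of those markers were at 0 in every oocyte. The 40 cumulus and granulosa markers summed to a median of 1796 CPM in CD+DHT (704 to 3511) and 2942 CPM in CD+Veh (1330 to 8681). Most of that was Spp1 and Serpine2. Without these 2 the medians were 365 CPM in CD+DHT (14.6 to 711) and 364 CPM in CD+Veh (144 to 2421). Of these markers 6 (Amh, Amhr2, Foxl2, Lhcgr, Ereg and Areg) were at 0 in every oocyte kept.

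**Figure D1:**
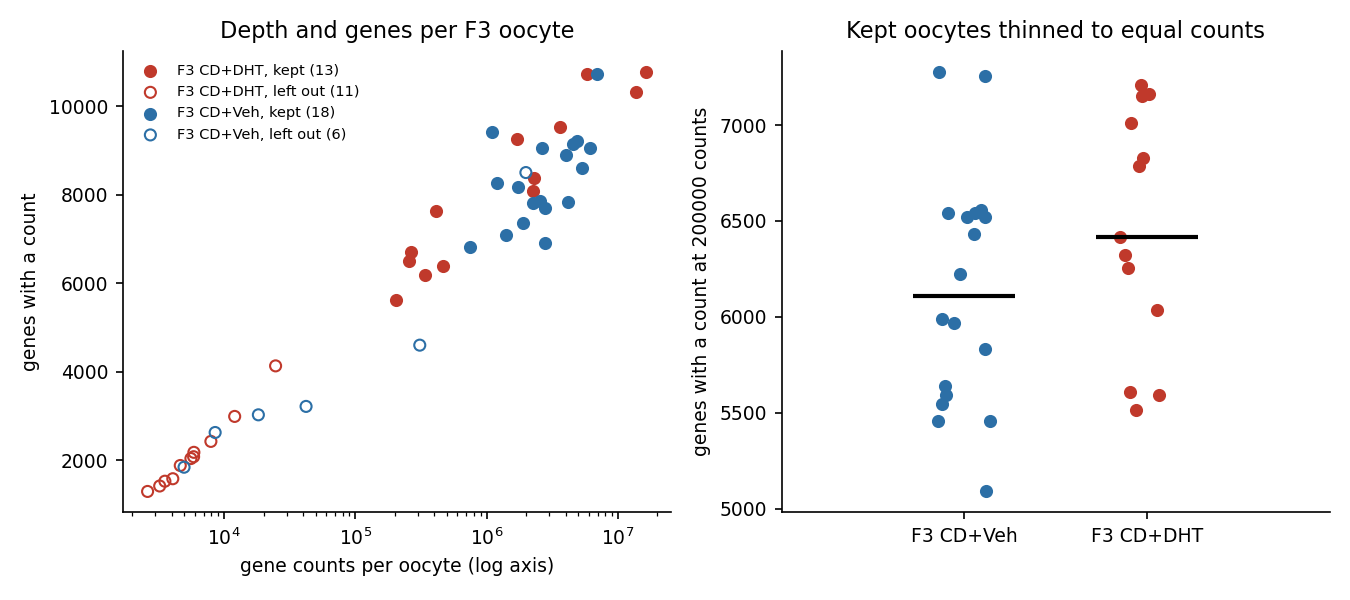
Left, genes with a count (vertical) against gene counts per oocyte (log axis) for all 48 F3 oocytes, with open circles for those left out. Right, genes with a count after thinning each kept oocyte to 200000 counts, with lines at the medians: 6 CD+DHT oocytes sit below every kept CD+Veh oocyte in depth, while the thinned values overlap.

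Oocytes of different lineages correlated about as closely as oocytes of the same lineage. Pearson's r of log2(CPM + 1) between oocytes, over the 2767 genes at 50 CPM or more, had a median of 0.71 within CD+DHT, 0.72 within CD+Veh and 0.71 between them. These r values are across genes of single oocytes and carry no test. Among 5484 genes measured (a mean of at least 10 CPM over the 2 group means) the difference of mean log2(CPM + 1), CD+DHT minus CD+Veh, was at least 1 (2-fold) for 209 genes, which is 3.81%. It was -1 or lower for 131, which is 2.39%, so 6.2% were past 2-fold in either direction. In 0% of genes were the oocytes of the groups fully separated. The median difference over all measured genes was 0.09, while the median spread between oocytes of a group was 1.18 (SD, log2 scale). The split between higher and lower depended on the scaling. With TMM scaling 129 genes were higher and 203 lower, and with DESeq2 size factors 111 and 245, the median over all genes moving to -0.07 and -0.12. The higher genes made up 61.5% of those past 2-fold in CPM, 38.9% with TMM and 31.2% with DESeq2 size factors. Without the 6 shallow CD+DHT oocytes 575 genes were higher and 44 lower. Nearest to the 2-fold line lay Nln (1.004) and Acot3 (-1.0006) on the inside and Ept1 (0.9997) and Rab38 (-0.99) on the outside.

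**Figure D2:**
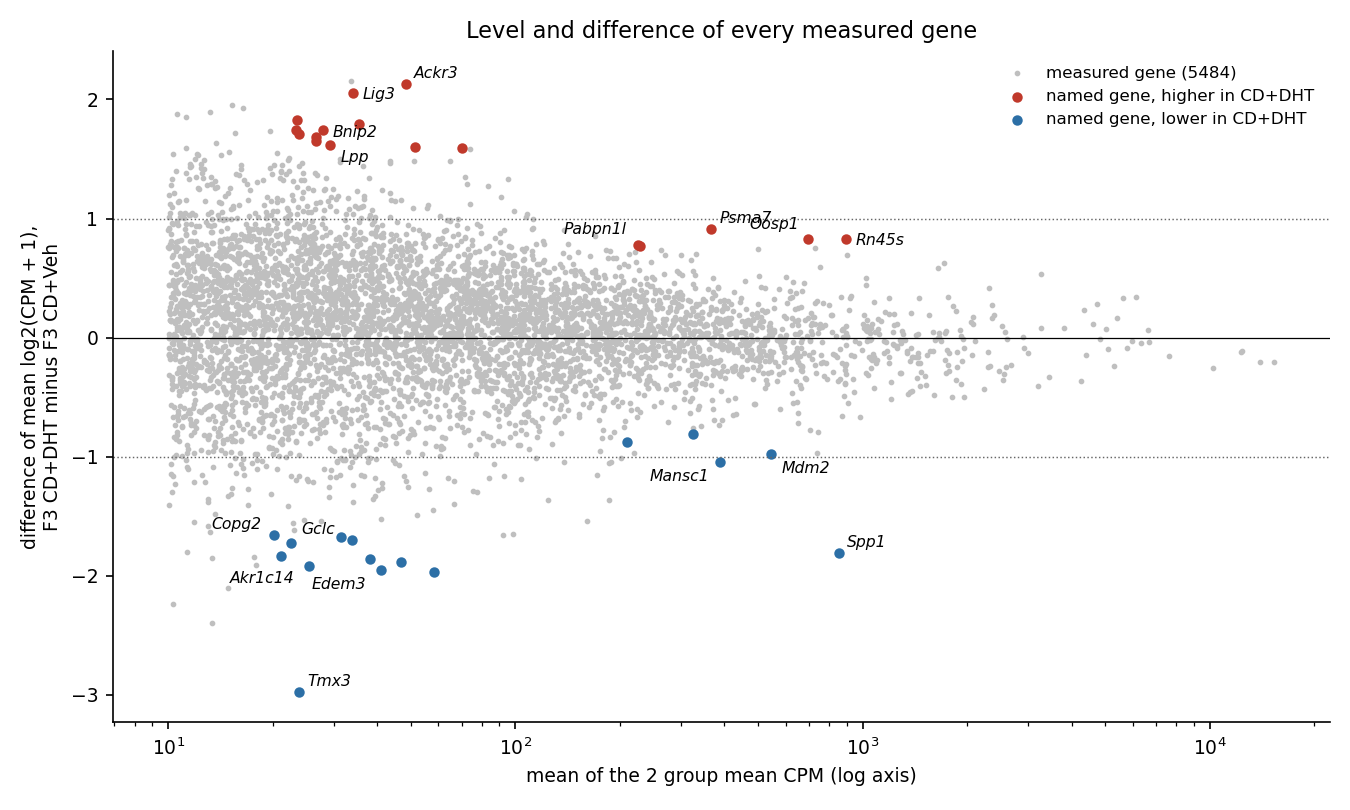
Difference of mean log2(CPM + 1) between F3 CD+DHT and CD+Veh oocytes (vertical) against the mean level in CPM (log axis) for the 5484 measured genes, with dotted lines at 2-fold. Coloured points are the 12 largest differences in each direction at 20 CPM or more and the 5 largest at 200 CPM or more, among genes with the same direction in means, medians and pooled counts: Tmx3 lies lowest at -2.98, and of the coloured points above 200 CPM Spp1 and Mansc1 pass 2-fold.

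Genes are named here from those at 20 CPM or more with a count in 75% of the oocytes of the higher group and the same direction in means, medians and pooled counts, taking the 12 largest differences each way. Higher in CD+DHT were Ackr3, Lig3, Tjp1, Scai, Bnip2, Bsdc1, Dcaf4, Urb1, Plek, Lpp, Rbm28 and A230046K03Rik, by 1.59 to 2.13 on the log2 scale. Lower in CD+DHT were Tmx3, Gm10280, Edem3, Akr1c14, Tom1l1, Crb1, Gm12633, Spp1, Gclc, Nsun3, Zfp260 and Copg2, by -2.98 to -1.66. In 9 of these 24 genes the difference stayed past 2-fold when counts were pooled, when medians replaced means, when libraries were thinned to equal counts and when the 6 shallow CD+DHT oocytes were left out. They were Bnip2, Dcaf4 and Lpp on the higher side and Tmx3, Edem3, Akr1c14, Gm12633, Gclc and Copg2 on the lower side. This group of 9 was picked after the values were seen. Pooling weighs oocytes by depth. Of the 47884707 pooled CD+DHT counts, oocyte 14 gave 16359078 (34.2%) and oocyte 15 gave 13853000. The largest share in CD+Veh was 12.1%, that of oocyte 23. Values in pooled counts therefore describe mainly the deepest CD+DHT oocytes. Pooling and leaving out the shallow oocytes are not independent checks.

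The proximal promoters of 4 of these 9 genes are shown because they are where transcription factors can sit on the DNA. Bnip2 and Lpp were higher and Edem3 and Copg2 lower in CD+DHT. Each sequence runs 5′ to 3′ on the gene's own strand from 250 bases before to 50 bases after the RefSeq start (GRCm38.p6). Lpp lies at chr16:24393100-24393399, plus strand. Bnip2 lies at chr9:69989216-69989515, plus strand. Edem3 lies at chr1:151755124-151755423, plus strand. Copg2 lies at chr6:30896745-30897044, minus strand. Where RefSeq lists several starts the first listed is used. Capitals mark AGAACA, the hexamer of steroid hormone response elements, and TGACNNNGC, the core of the antioxidant response element. Both were searched on both strands and none of the matches overlap one another.
Lpp: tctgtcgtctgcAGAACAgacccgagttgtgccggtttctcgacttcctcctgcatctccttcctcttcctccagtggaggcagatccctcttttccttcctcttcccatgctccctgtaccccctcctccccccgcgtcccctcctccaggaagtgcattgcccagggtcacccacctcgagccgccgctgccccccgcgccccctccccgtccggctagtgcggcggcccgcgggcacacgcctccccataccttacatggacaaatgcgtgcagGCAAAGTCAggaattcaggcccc
Bnip2: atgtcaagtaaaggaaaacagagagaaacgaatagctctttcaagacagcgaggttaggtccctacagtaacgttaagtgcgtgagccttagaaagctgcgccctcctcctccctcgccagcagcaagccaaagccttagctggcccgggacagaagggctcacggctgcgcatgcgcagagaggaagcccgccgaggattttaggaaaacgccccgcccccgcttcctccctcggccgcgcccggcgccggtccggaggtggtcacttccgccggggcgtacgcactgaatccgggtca
Edem3: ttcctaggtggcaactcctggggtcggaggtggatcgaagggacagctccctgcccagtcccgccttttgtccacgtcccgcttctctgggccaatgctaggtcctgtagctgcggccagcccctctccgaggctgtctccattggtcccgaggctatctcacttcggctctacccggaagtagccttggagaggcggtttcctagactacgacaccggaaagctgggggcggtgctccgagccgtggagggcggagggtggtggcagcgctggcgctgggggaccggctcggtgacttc
Copg2: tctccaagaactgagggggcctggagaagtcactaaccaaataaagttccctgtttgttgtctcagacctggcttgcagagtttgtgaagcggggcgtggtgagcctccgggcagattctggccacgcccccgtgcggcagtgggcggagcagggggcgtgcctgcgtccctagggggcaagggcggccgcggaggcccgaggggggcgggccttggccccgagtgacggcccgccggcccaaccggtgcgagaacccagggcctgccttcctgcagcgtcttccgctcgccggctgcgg

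The Lpp promoter held 1 match to each motif, AGAACA on the strand shown and TGACNNNGC on the opposite strand. The Bnip2, Edem3 and Copg2 promoters held 0 of either. Of the 24 genes, 20 had a RefSeq promoter, and AGAACA occurred in 4 of these 20 (Lig3, Urb1, Plek and Lpp) against 19% of 32851 mouse promoters of the same length. TGACNNNGC occurred in 3 of the 20 (Plek, Lpp and Tom1l1) against 12.4% of all promoters. The full inverted repeat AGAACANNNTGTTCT occurred in 0 of the 20 and in 0.00913% of all. A match describes the letters only.

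Among genes lower in CD+DHT the largest difference was in Tmx3, which encodes a thioredoxin-related disulfide isomerase of the endoplasmic reticulum membrane. Tmx3 (chr18:90510154-90543267) had 0 CPM at the lowest, 1.01 at the median and 22.58 at the highest in CD+DHT, against 2.33, 26.41 and 204 CPM in CD+Veh. All 18 CD+Veh oocytes had Tmx3 counts but only 7 of 13 CD+DHT oocytes did. The 6 without counts included oocytes 4 and 16, where 0 counts allow at most 1.77 and 1.32 CPM, both below the lowest CD+Veh oocyte. The mean difference in Tmx3 was -2.98, and in 212 of the 234 pairs of a CD+DHT with a CD+Veh oocyte the CD+DHT oocyte was lower. Pooled counts gave 5.95 CPM (exact Poisson 95% interval 5.28 to 6.68) against 35.7 CPM (34.1 to 37.2). These intervals cover counting error only.

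A further gene of the endoplasmic reticulum was lower in CD+DHT. Edem3 (chr1:151755371-151822051) encodes a mannosidase-like protein that trims misfolded glycoproteins for degradation. Its CD+DHT oocytes had 0, 16.9 and 31.1 CPM at the lowest, median and highest, and its CD+Veh oocytes 4.01, 44.6 and 192 CPM. The highest Edem3 value in CD+DHT thus lay below the CD+Veh median, and CD+DHT was lower in 215 of 234 pairs. The difference was -1.95, or -1.06 without the 6 shallow CD+DHT oocytes. Over the 31 measured genes of the unfolded protein response and ER quality control, 15 were higher and 16 lower, with a median of -0.01. Past 2-fold in that list were Edem3 and, in the opposite direction, Asns. Asns, the asparagine synthetase induced by amino acid shortage, was 0, 31.6 and 459 CPM in CD+DHT and 0, 0.617 and 469 CPM in CD+Veh, a difference of 1.58. Asns was present in a subset of oocytes of both groups, 9 of 13 and 12 of 18.

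Gclc encodes the catalytic subunit of glutamate-cysteine ligase, which sets the rate of glutathione synthesis. Glutathione is the main small antioxidant of the egg and helps unpack the sperm nucleus. Gclc (chr9:77754535-77794485) ran from 0 through a median of 9.73 to 38.1 CPM in CD+DHT and from 2.15 through 28.3 to 111 CPM in CD+Veh, a difference of -1.72 with overlapping groups. Of 21 measured genes of oxidative stress and glutathione defence, 9 were higher and 12 lower (median -0.18), and Gclc was the member past 2-fold. The sign of that median was not stable, being 0.09 without the 6 shallow CD+DHT oocytes and 0.03 in pooled counts. Gclm, the regulatory subunit, differed by -0.35 and Nfe2l2, the transcription factor NRF2 that drives both subunits, by 0.43. Gclm and Nfe2l2 were picked after their values were seen.

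Copg2 (chr6:30747554-30896794), a subunit of the COPI coat that carries vesicles from the Golgi back to the endoplasmic reticulum and an imprinted gene, had 0, 6.44 and 22.45 CPM in CD+DHT. In CD+Veh Copg2 had 1.34, 22.36 and 115 CPM, so that the highest CD+DHT oocyte reached about the CD+Veh median. The difference was -1.66. Akr1c14 (chr13:4049011-4090688) encodes a 3-alpha-hydroxysteroid dehydrogenase, an enzyme that inactivates DHT. It was detected in 4 of 13 CD+DHT oocytes (0, 0 and 104 CPM) and 14 of 18 CD+Veh oocytes (0, 8.51 and 343 CPM), a difference of -1.92. Akr1c14 belongs to a family of near-identical neighbours, and Gm12633 (-1.84) is a processed pseudogene, so reads of other genes may be counted in both.

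In some other genes on the lower side the difference shrank without the shallow libraries. Tom1l1, an adaptor of endosomal sorting, differed by -1.89 but by -0.37 without the 6 shallow CD+DHT oocytes. Crb1, a cell polarity protein, differed by -1.86 and then by -0.61. Nsun3, which modifies a mitochondrial transfer RNA, differed by -1.70, then by -0.73, and by -0.52 in pooled counts. Zfp260 and Gm10280 were still at -1.72 and -1.25 without the shallow oocytes, but at -0.76 and -0.68 in pooled counts. Spp1 is osteopontin, a secreted phosphoprotein that granulosa cells also make. In CD+DHT Spp1 had 0, 104 and 1088 CPM, and in CD+Veh 0.489, 1010.5 and 4959.8 CPM. In CD+Veh the oocytes fell into high and low ones for Spp1: 6 of 18 lay at or under 5.03 CPM and the other 12 at or above 348 CPM. The CD+DHT median of 104 CPM lay between these values. The Spp1 difference was -1.81, but 0.39 without the 6 shallow CD+DHT oocytes, whose Spp1 lay between 0 and 252 CPM. The part of depth and of cumulus RNA in the Spp1 difference was not tested.

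Among the 12 named genes on the higher side, Ackr3 had the largest difference, 2.13. It encodes an atypical chemokine receptor that scavenges CXCL12. Ackr3 (chr1:90203980-90216751) had 0, 41.3 and 237 CPM in CD+DHT and 0, 10.6 and 189 CPM in CD+Veh, and was detected in 12 of 13 and 12 of 18 oocytes. The ranges were nearly the same, and the groups differed in their medians and in how many oocytes had a count. In pooled counts the Ackr3 difference was 0.91. Lig3, the DNA ligase of base excision repair that also maintains mitochondrial DNA, had 0, 22.48 and 150.2 CPM in CD+DHT and 0, 5.5 and 99.7 CPM in CD+Veh. Its difference was 2.05, or 0.80 in pooled counts.

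Lpp, a LIM protein of focal adhesions, had 0.432, 44.5 and 83.2 CPM in CD+DHT and 0.389, 7.9 and 68.7 CPM in CD+Veh. Its difference was 1.62 per oocyte and larger, 2.18, in pooled counts. Bnip2, a scaffold protein that binds BCL2 and small GTPase regulators, had 2.15, 27.5 and 181 CPM in CD+DHT and 0, 11.6 and 43.3 CPM in CD+Veh. CD+DHT was higher in Bnip2 in 196 of 234 pairs, and 12 of its 13 oocytes lay above the CD+Veh median. Dcaf4, a substrate receptor of the CUL4 ubiquitin ligase, had medians of 8.21 and 0.662 CPM (difference 1.71). Tjp1, the tight junction scaffold ZO-1, was higher by 1.82, but by 0.64 in pooled counts and 0.85 without the shallow oocytes. Urb1 and Rbm28, nucleolar proteins of ribosome assembly, were higher by 1.69 and 1.60, and by 0.69 and 0.51 in pooled counts.

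**Figure D3:**
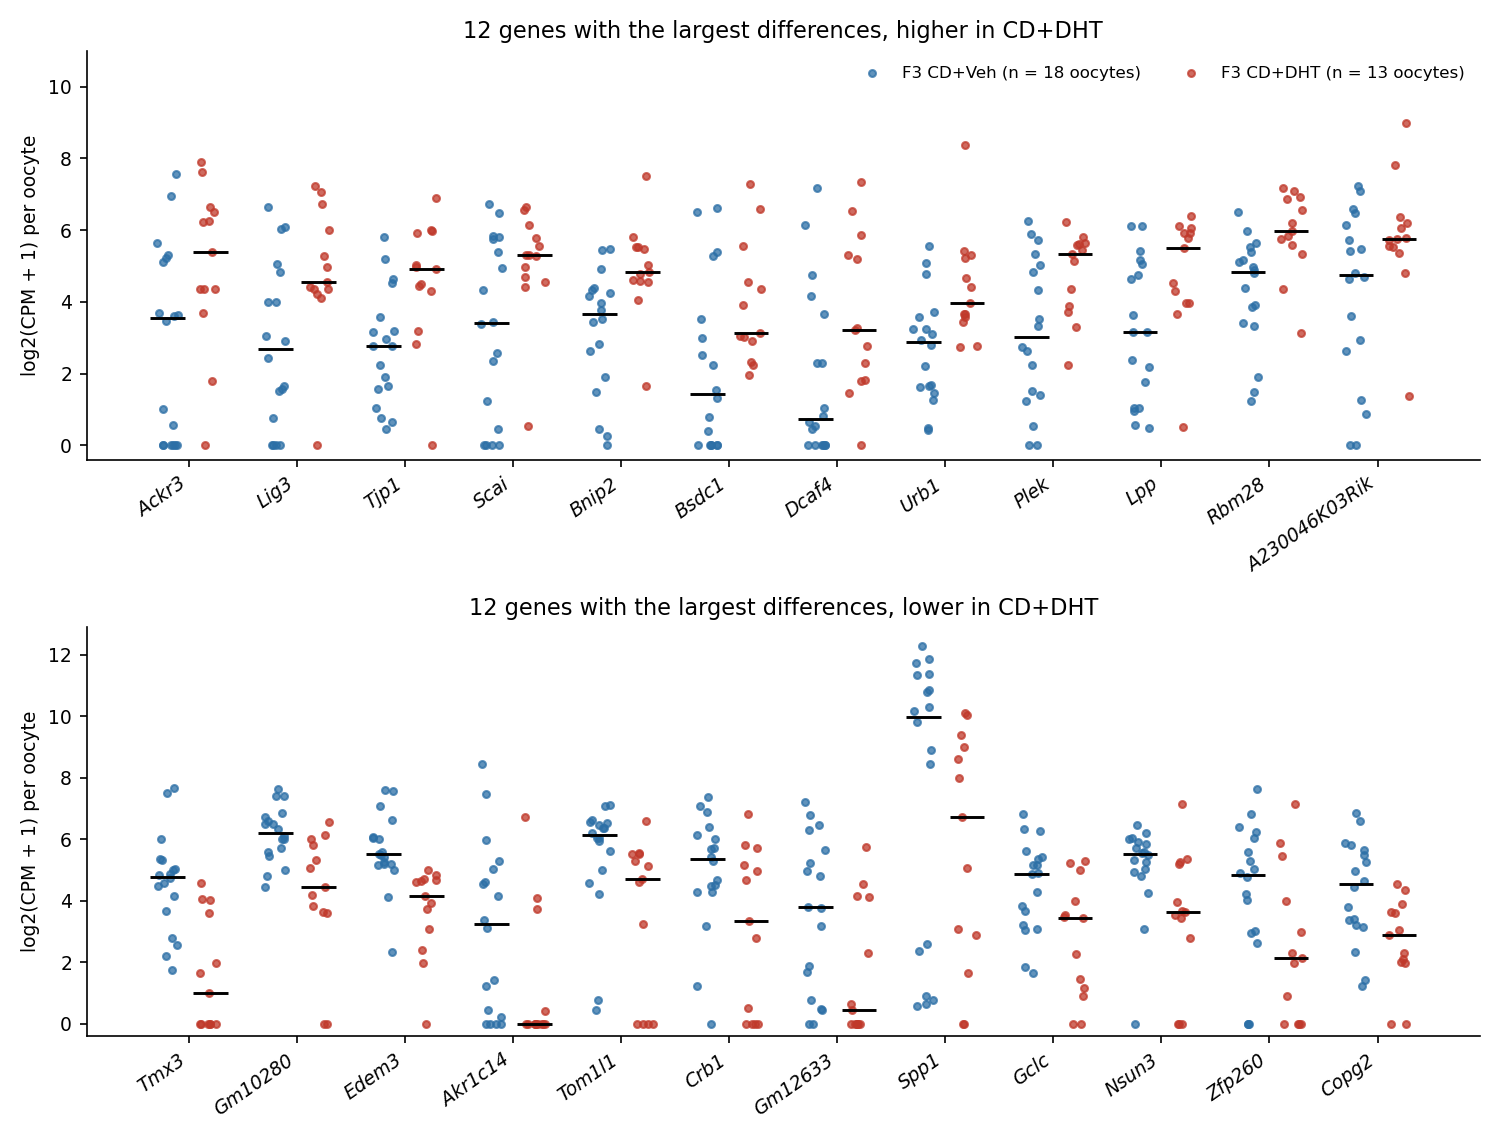
log2(CPM + 1) in each of 18 F3 CD+Veh (blue) and 13 F3 CD+DHT (red) oocytes for the 12 named genes with the largest difference in each direction, with lines at the medians. The groups overlap for every gene; for Tmx3 and Edem3 no CD+DHT oocyte lies above the CD+Veh median.

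Abundant transcripts differed less. Among genes at a mean of 200 CPM or more whose means, medians and pooled counts differed in the same direction, the largest positive differences were in Psma7 (0.91), Rn45s (0.83), Oosp1 (0.82), Pabpn1l (0.78) and Dda1 (0.77). The Rn45s difference was 0.22 in medians and 0.19 in pooled counts. Pabpn1l encodes a poly(A)-binding protein of eggs that takes part in the clearance of maternal messengers. It had 143, 235 and 1109 CPM in CD+DHT and 84.1, 144 and 260 CPM in CD+Veh, was higher in 201 of 234 pairs and kept 0.81 in pooled counts. Oosp1, an oocyte-secreted protein, had 369, 856 and 1737 CPM in CD+DHT and 264, 430.2 and 1252 CPM in CD+Veh, but its difference was 0.36 both in pooled counts and without the shallow oocytes. Psma7, an alpha subunit of the 20S proteasome, had 177, 436 and 1576 CPM against 143, 203 and 444 CPM, and its difference was 0.18 in pooled counts. Under the same condition the largest negative differences were in Spp1, Mansc1 (-1.04), Mdm2 (-0.98), Gm8787 (-0.88) and Gm17751 (-0.81). Mdm2, the ubiquitin ligase that restrains p53, had 8.59, 450.0 and 816 CPM in CD+DHT and 324, 586 and 1938 CPM in CD+Veh. The Mansc1 difference rested on few low CD+DHT oocytes, since its difference of medians was 0.00. For Mdm2 the difference was -0.38 in medians, -0.28 in pooled counts and -0.56 without CD+DHT oocyte 7. CD+DHT was lower in Mdm2 in 176 of 234 pairs.

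The following gene lists are given by counts of members above and below 0, beside the 58.3% of all measured genes that were higher in CD+DHT. Members past 2-fold are named where their mean level was at least 20 CPM. Of all measured genes 3.81% were past 2-fold higher and 2.39% past 2-fold lower. Among lists with at least 5 measured members the highest median was that of nuclear-encoded oxidative phosphorylation subunits. Of 17 measured members 13 were higher and 4 lower, with a median of 0.40, and none passed 2-fold (0 in each direction). Sdha, the flavoprotein of complex II, had medians of 197 and 141 CPM (0.73, but 0.04 in pooled counts). Atp5a1, the alpha subunit of ATP synthase, had 87.7 and 42 CPM (0.71), and Cox5a of complex IV 48.5 and 31 CPM (0.70, or 0.38 in pooled counts). The list's median was 0.27 with TMM, 0.22 with DESeq2 size factors and 0.14 in pooled counts. The 17 measured members were part of 78 with a row in the data. With no minimum level the list's median was 0.15, below the 0.20 of metaphase II arrest and anaphase-promoting complex genes. Of 80 mitochondrial ribosomal proteins 21 were measured, with 15 higher. Their median was 0.29, or 0.06 with DESeq2 size factors and 0.13 with no minimum level. Among 19 genes of mitochondrial dynamics, genome upkeep and import, 10 were higher, and Clpx, the unfoldase of the matrix protease, was past 2-fold (24.9 against 8.02 CPM at the median, difference 1.14).

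Of 17 genes of cholesterol synthesis and uptake 11 were higher and 6 lower (median 0.29, but -0.03 with DESeq2 size factors). Soat1, which esterifies cholesterol for storage, had 134 and 285 CPM at the medians and a difference of -1.01, which was 0.10 in pooled counts. Glycolysis and glucose uptake had 6 higher and 10 lower of 16 (median -0.17, but 0.52 without the shallow CD+DHT oocytes). In that list G6pdx was at -0.98, or -0.22 without those oocytes. Pdk3, a kinase that shuts down pyruvate dehydrogenase, had 34.1, 70.1 and 167 CPM in CD+DHT and 21.2, 192 and 289 CPM in CD+Veh (-0.89), and CD+DHT was lower in 183 of 234 pairs.

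Steroid receptors and androgen metabolism form the list closest to the founding exposure. Of 22 measured members 7 were higher and 15 lower, with a median of -0.13. That median was 0.00 without the shallow oocytes. Pgr, the progesterone receptor, had no count at all (0 CPM). Pgr was picked for its role. Past 2-fold were Akr1c14, Esr2 and Akr1c18, all lower in CD+DHT, as were 2.39% of all measured genes. Esr2, oestrogen receptor beta, had 5.28, 133 and 418 CPM in CD+DHT and 83.7, 242 and 327 CPM in CD+Veh. Its difference was -1.05, or -0.14 in pooled counts and -0.61 without the shallow oocytes. Akr1c18, a progesterone-degrading enzyme that is also a cumulus and granulosa marker, had medians of 7.51 and 7.85 CPM and a difference of -1.01, which turned to 0.13 without the shallow oocytes. The 10 measured cumulus and granulosa markers themselves had 2 higher and 8 lower (median -0.48, but 0.44 without the shallow oocytes), and the part of cumulus RNA in Akr1c14 and Akr1c18 was not tested. Of 16 measured orthologues of polycystic ovary syndrome loci 9 were higher and 7 lower (median 0.11). Dennd1a, an endocytic regulator, was the member past 2-fold, with medians of 19.46 and 5.71 CPM and a difference of 1.17 (0.39 in pooled counts).

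**Figure D4:**
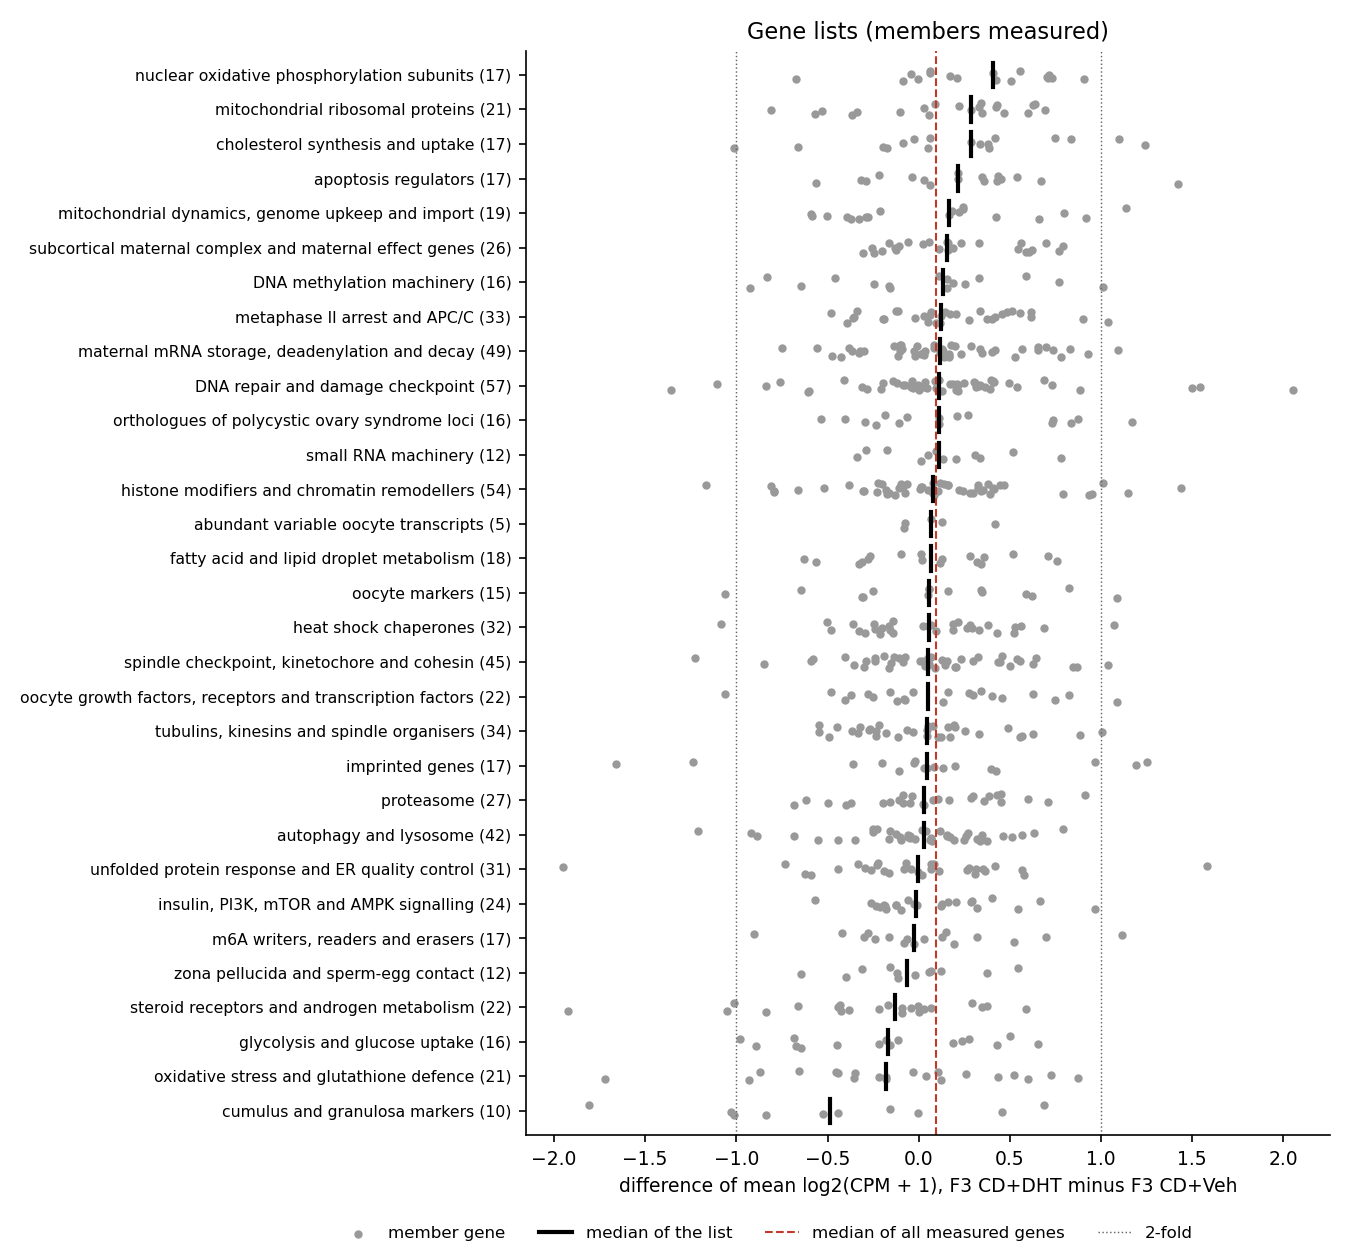
Differences of mean log2(CPM + 1), F3 CD+DHT minus CD+Veh, for measured members (grey points) of each gene list with at least 5 measured, with black bars at list medians, a dashed line at the median of all measured genes (0.09) and dotted lines at 2-fold. List medians run from -0.48 for cumulus and granulosa markers to 0.40 for oxidative phosphorylation subunits, and members of most lists scatter on both sides of 0.

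Oocyte identity and meiosis genes showed small medians. Of 22 oocyte growth factors, receptors and transcription factors 11 were higher and 11 lower. Nobox and Lhx8, homeobox factors needed for early follicles, went opposite ways. Nobox had 3.08, 33.4 and 203 CPM in CD+DHT and 0.358, 81.3 and 347 CPM in CD+Veh (-1.06), and Lhx8 had 2.15, 22.58 and 63.8 against 0, 11.2 and 49.9 CPM (1.09). Both differences stayed past 1 without the shallow CD+DHT oocytes (-1.25 and 1.47). The subcortical maternal complex and maternal effect genes had 17 of 26 higher (median 0.16, but -0.02 with TMM) and 0 past 2-fold. Metaphase II arrest and anaphase-promoting complex genes had 23 of 33 higher (median 0.12, but -0.04 with TMM), with Mapk3, the kinase ERK1, past 2-fold (1.04, or 0.33 in pooled counts). Of 45 spindle checkpoint, kinetochore and cohesin genes 28 were higher (median 0.05, but -0.12 with TMM), with Cenpi at 1.04 (0.10 in pooled counts and 0.40 without the shallow oocytes). Kif2c, a kinesin that disassembles microtubules at centromeres, differed by 1.01 (0.40 in pooled counts) in a list of 34 tubulins, kinesins and spindle organisers with 18 higher. Zona pellucida and sperm-egg contact genes had 5 higher and 7 lower of 12, with Zp2 at -0.64, Zp1 at -0.31 and Astl, the protease that cleaves ZP2 after fertilisation, at 0.54. Without the shallow CD+DHT oocytes Zp2 was at 0.04 and Zp1 at 0.33, and in pooled counts Zp2 was at 0.07 and Astl at 0.24, so Zp1 and Zp2 kept no direction.

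Of 57 measured DNA repair and damage checkpoint genes 35 were higher and 22 lower (median 0.11, but -0.05 with TMM), with 3 past 2-fold above (3.81% of all measured genes were) and 2 below (2.39% of all), a share near that of all genes. Besides Lig3 these included Bard1, the partner of BRCA1, at 35.1 against 10.15 CPM (1.50, or 0.64 in pooled counts), and Xrcc2, a protein of homologous recombination, at 9.78 against 25.63 CPM (-1.10, or -0.61 without the shallow oocytes). Of 54 histone modifiers and chromatin remodellers 33 were higher (median 0.08, but -0.07 with TMM). Kat5, the acetyltransferase TIP60, had medians of 28.9 and 11.3 CPM (1.44, or 0.77 in pooled counts), and Suv39h1, a histone H3 lysine methyltransferase of heterochromatin, 20.3 and 26.56 CPM (-1.17, or -0.57 in pooled counts). DNA methylation machinery had 9 of 16 higher, with Uhrf1, the factor that guides maintenance methylation, at 0.77 and Dnmt3l, the cofactor of imprint setting in the oocyte, at -0.64. Uhrf1 was at 0.01 in pooled counts and Dnmt3l at -0.03 without the shallow oocytes. In the same list Mbd5 was at -0.83, or -0.36 without those oocytes.

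Of 17 measured imprinted genes 10 were higher and 7 lower. Those past 2-fold with at least 20 CPM were Copg2, Inpp5f (-1.24), Kcnq1 (1.25) and Th (1.19). Over all measured genes 6.2% were past 2-fold in either direction. Kcnq1, a potassium channel subunit, had 3.52, 29.3 and 60.1 CPM in CD+DHT and 0, 15.1 and 45.1 CPM in CD+Veh and was higher in 185 of 234 pairs, with 0.73 in pooled counts. Messengers for the handling of maternal RNA were spread on both sides: 31 of 49 storage, deadenylation and decay genes were higher (median 0.12, but -0.05 with TMM). Xrn1, the cytoplasmic 5′ to 3′ exonuclease, had medians of 41 and 19.8 CPM (1.09, or 0.67 in pooled counts). Ythdf2, the m6A reader that the egg needs to clear maternal messengers, had 62.3 and 30.9 CPM (1.12, or 0.37 in pooled counts).

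The same genes were then read in F1 and F2, each against CD+Veh controls of its own generation. F1 held 8 CD+DHT and 10 CD+Veh oocytes with no animal named, and F2 held 25 and 16 oocytes of 5 and 4 animals, the animal being inferred from the titles. In these CD groups the labelled generation, diet and hormone match the titles. Of the 12 genes higher in F3 CD+DHT, 6 were higher in F1, 4 in F2 and 2 (Lig3 and Tjp1) in both, by 0.08 to 0.22. Of the 12 lower genes, 7 were lower in F1, 9 in F2 and 6 in both. Those shares are read against all 5484 genes, of which 53.1% were higher in CD+DHT in F1 but only 24.2% in F2. Of all 131 genes past 2-fold lower in F3, 69 were lower in both F1 and F2. Of all 209 past 2-fold higher, 29 were higher in both. The share of all measured genes with 1 direction in both was not computed. Tmx3 differed by 0.20 in F1 and -1.14 in F2, where animal means of log2(CPM + 1) ran from 1.79 to 3.37 in CD+DHT and from 2.92 to 4.36 in CD+Veh, and overlapped. Crb1 was lower in each generation, by -1.57, -1.38 and -1.86, the F3 value being -0.61 without the shallow CD+DHT oocytes. Nobox, outside these named genes and picked after its values were seen, differed by -1.15 in F1, -1.17 in F2 and -1.06 in F3. In F2 the animal means of CD+DHT and CD+Veh overlapped for Crb1 (0.95 to 3.61 against 2.76 to 3.86). They also overlapped for Nobox (3.43 to 6.06 against 5.51 to 7.04). Edem3 differed by 0.61 in F1 and 0.22 in F2, and Gclc by 0.39 and -0.09. Akr1c14 was at -1.99 in F1 and 0.00 in F2.

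**Figure D5:**
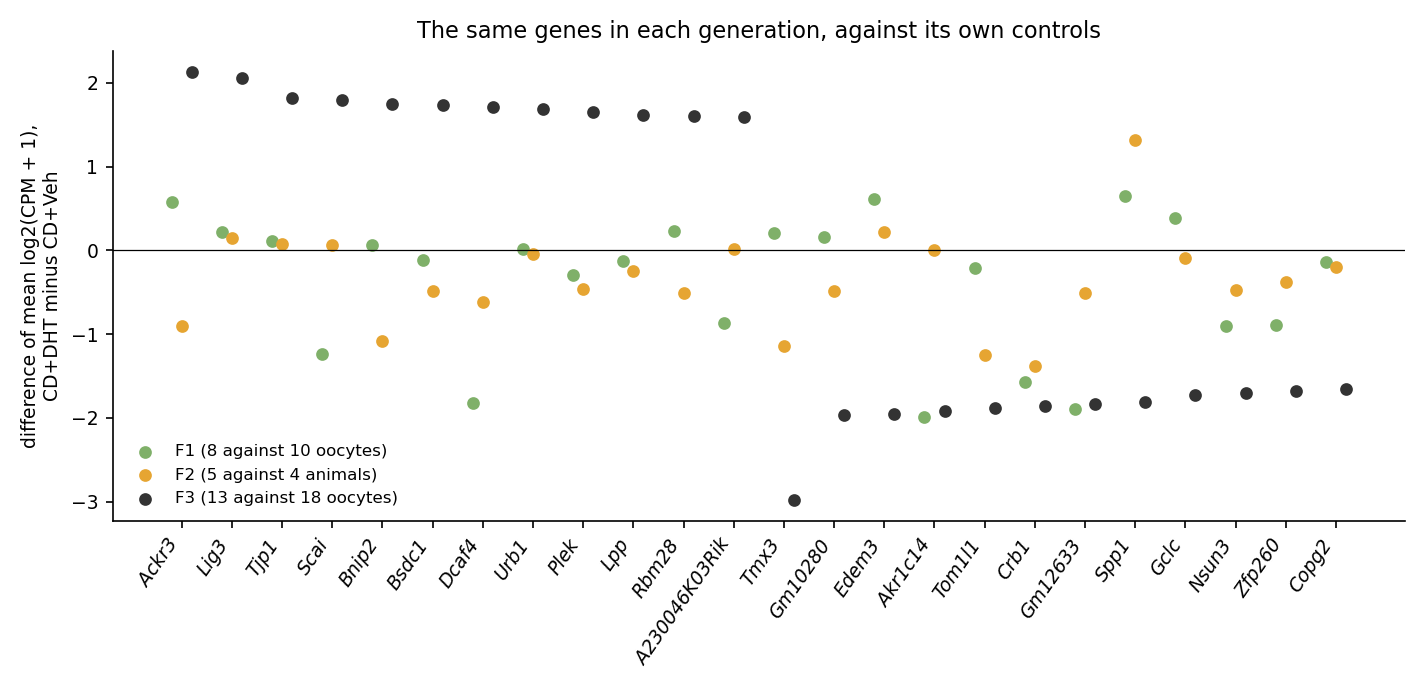
Difference of mean log2(CPM + 1), CD+DHT minus CD+Veh, in F1 (green, oocytes), F2 (amber, means over animals) and F3 (black, oocytes) for the 24 named genes with the largest F3 differences, each generation against its own controls. Most F1 and F2 points of the higher genes lie near or below 0, and 6 of the 12 lower genes are below 0 in all 3 generations. Of all 131 genes past 2-fold lower in F3, 69 are. Of all 5484 measured genes 53.1% were higher in F1 and 24.2% in F2. The share of them that was lower in both was not computed.

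Levels in a further F3 lineage give a scale for these values. In F3 oocytes from founders on a diet high in fat and sugar with vehicle (HFHS+Veh, 13 oocytes, part of them labelled F2 in their characteristics) the median was 21.9 CPM for Tmx3 and 71.2 CPM for Edem3, both near or above F3 CD+Veh. The HFHS+Veh median was 8.51 CPM for Gclc, 3.91 CPM for Copg2 and 0 CPM for Akr1c14, at or below F3 CD+DHT. For Lpp it was 20.2 CPM and for Bnip2 8.52 CPM.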

How the data were processed

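Single MII oocytes had been profiled with Smart-seq2, a full-length method without molecular identifiers, per the labels' protocols. The authors deposited raw counts per gene symbol. The submitters' processing notes list STAR 2.4.2a, Seurat 2.0 and mm10 as the build. No source used here states the counting program, gene annotation or use of strand. The authors' deposited table of natural log values, counts scaled to 10000 per oocyte plus 1, held the same 31 oocytes and 15758 genes and served as an alternative.

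Of 24582 lines, 92 spike-ins and eGFP (0 counts) were left out of library sizes; 24489 gene lines gave 23995 symbols. CPM, log2(CPM + 1) and group means with equal weight per oocyte were computed in Python 3.11.15 (numpy 2.4.6, pandas 2.3.3, scipy 1.17.1, matplotlib 3.10.9). Pooled counts carry exact Poisson 95% intervals. PCR copies are not independent molecules. edgeR 4.0.16 and DESeq2 1.42.0 in R 4.3.3 gave alternative size factors only. Scripts were tested on simulated data. No 2 libraries were identical (0 pairs). Symbols turned into dates (25) or merged (88) were not named. Positions are from GENCODE vM21 on GRCm38.

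Genes named over the whole table had at least 20 CPM, a count in 75% of the oocytes of the higher group and the same direction in means, medians and pooled counts: the 12 largest differences each way, and 5 each way at 200 CPM. Per list, without those conditions on detection and direction, the members past 2-fold at 20 CPM were picked, or else up to 3 with the largest differences. Of the latter only part are given here. Members and lists were chosen with earlier results of these data known. No animal was named for these groups, so no p-value was computed. Alternatives covered pooling, medians, pseudocounts, scaling, minimum levels, oocyte filters, thinning and leaving out each oocyte.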

Additional observations from a re-analysis of the deposited data

Results flagged for a closer look

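In F2, where oocytes could be averaged per animal, some animals stood far from the others of their group in genes named for F3. The values are means of log2(CPM + 1) per animal, over 66 groups of 4 or 5 animals. Chance marks about 1 in 20 such groups. The same animals enter for every gene, so the groups are not independent and the number marked cannot be judged by that rate. In F2 CD+Veh, animal 3 was highest in Tjp1 at 6.2 (nearest other animal 4.77), highest in Akr1c14 at 3.01 (nearest 0.428) and lowest in Gm10280 at 3.07 (nearest 4.16). In F2 CD+DHT, animal 9 was lowest in Urb1 at 3.42, in Rn45s at 9.38 and in Mdm2 at 7.79, and animal 8 was lowest in Plek at 2.46. Animal 9 was also the lowest of its group in Lig3, Dcaf4, Lpp and Rbm28, and the highest in Insig1 and Jag1. Those genes were picked after their values were seen.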

How the results depend on the processing

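The counts of genes past 2-fold, 209 higher and 131 lower in F3 CD+DHT, were 171 and 191 in pooled counts (58 and 44 of them shared with the 209 and 131). They were 406 and 211 with medians, 38 and 38 with a pseudocount of 5, 394 and 328 with 0.1, 129 and 203 with TMM, and 111 and 245 with DESeq2 size factors. A minimum of 20 CPM gave 114 and 87, of 5 CPM 300 and 188, and no minimum 372 and 215. Adding CD+Veh oocytes 19 and 21 gave 358 and 181, a stricter filter (10 against 18 oocytes) 269 and 90, and thinning to 200000 counts 414 and 165. The authors' deposited natural log table gave 209 and 131. Leaving out each oocyte in turn gave 169 to 277 higher and 110 to 176 lower. Settings chosen after seeing the data gave 575 and 44 with at least 500000 counts (7 against 18 oocytes) and 151 and 180 after centring on the median of all genes. Of 46 named genes past 2-fold, 43 kept their sign under every alternative. For genes named over the whole table, the same sign in medians and in pooled counts was a condition of naming. Those alternatives could therefore not reverse them, and 43 of 46 is no measure of stability. Spp1 turned to 0.39 and Akr1c18 to 0.13 with at least 500000 counts, and Soat1 to 0.10 in pooled counts; the cause was not tested. No paired analysis was possible because the groups share only oocyte numbers, which pair nothing, and no test was made. Depth limits genes near 10 CPM most in the 6 shallow CD+DHT oocytes.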

Other observations

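The lists of cell maintenance and signalling genes had members on both sides of 0. Of 17 measured apoptosis regulators 12 were higher in F3 CD+DHT and 5 lower (median 0.22, or 0.04 with DESeq2 size factors), with the inhibitors Birc6 at 0.45, Birc5 (survivin) at 0.43 and Xiap at 0.43; in pooled counts Birc5 was at 0.14 and Xiap at -0.52. The proteasome had 15 of 27 higher (median 0.03), with Psmd7 at 0.60 (0.19 in pooled counts) and Psmd2 at -0.68 (0.37 in pooled counts). Heat shock chaperones had 18 of 32 higher (median 0.06, but -0.12 with TMM), and Dnajc7, a co-chaperone, was at 31.5 against 18.5 CPM at the medians (1.07, or 0.47 in pooled counts). Autophagy and lysosome genes had 22 of 42 higher (median 0.03, but -0.15 with TMM). In that list Psap was at -0.92 (-1.58 in pooled counts) and Map1lc3b at -0.89 (but 0.26 in pooled counts). Atp6v0a2, a subunit of the vacuolar proton pump, was at 0.79 (0.38 in pooled counts).

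Insulin, PI3K, mTOR and AMPK signalling had 11 higher and 13 lower of 24 (median -0.02). In that list Grb10, an adaptor that restrains the insulin receptor, had medians of 35.3 CPM in CD+DHT and 19.52 CPM in CD+Veh (0.97, or 0.27 in pooled counts), and Deptor, an inhibitor of mTOR, was at -0.57 (-0.11 in pooled counts). Fatty acid and lipid droplet genes had 11 of 18 higher (median 0.07, but -0.07 with TMM), with Pparg, a nuclear receptor of lipid storage, at 0.71 (0.33 in pooled counts). Of the 5 abundant variable transcripts, Insig1, which restrains cholesterol synthesis, was at 0.42 in F3, 1.01 in F1 and 0.90 in F2, and Jag1, a Notch ligand, at -0.08, 1.13 and 0.78. Tek was at 0.86 per oocyte and -1.56 in pooled counts.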
